A study of Mus musculus with 8 samples.

Results

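The transcripts described here are those of 5 haemoglobin chain genes, Hba-a1, Hba-x, Hbb-b1, Hbb-bh1 and Hbb-y, and of Alas2, the erythroid enzyme that starts haem synthesis. They were followed as blood RNA in an RNA immunoprecipitation (RIP) of the RNA-binding protein DAZL from mouse embryonic gonads. Members were the non-control probes that the scanner files name as 1 of these 6 genes. There were 11 such probes, of 41174 probes on the array, for these 6 of 19674 named genes, and all of them matched by their gene name. Gonads of MCH embryos at E14.5 were collected in lots of 50, XX or XY, with no allele or treatment named in the labels. From each lysate 5% was kept as input, and the rest was precipitated with an antibody against DAZL (IP). Cy3-labelled cRNA was made from 50 ng of input RNA or from 1 ng of IP RNA and hybridised to 1-colour Agilent whole mouse genome arrays, 2 arrays in each of the groups XX input, XX IP, XY input and XY IP. Each lot pooled the gonads of many embryos. No IP with a control antibody was analysed here, so each IP was read against the input of its sex alone.

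Haemoglobin is built from alpha-type and beta-type chains around haem. In the mouse embryo, the first red cells come from the yolk sac, keep their nuclei for days in the circulation, and use the embryonic chains: zeta (Hba-x) of the alpha type, and epsilon-y (Hbb-y) and beta-h1 (Hbb-bh1) of the beta type. Red cells made later in the fetal liver use the adult chains alpha (Hba-a1) and beta (Hbb-b1). Young red cells are packed with these mRNAs, and blood is collected with the vessels of the gonad. DAZL is a germ cell protein that red cells are not known to make. In whole gonads, fewer red cells and less globin RNA per cell cannot be told apart.

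The positions of the probes are those of the files, on mm8. The Hba-a1 probes lay on the plus strand at chr11:32183775-32183956 (A_52_P278538) and chr11:32196744-32196803 (A_52_P208681), 12969 bases apart. Mouse alpha-globin is a duplicated gene with nearly identical copies, so these signals were not assigned to 1 copy. The Hba-x probe (A_51_P204053) lay on the same strand at chr11:32177668-32177727. On the minus strand of chromosome 7, 4 probes carried the name Hbb-b1. The one nearest to the 3′ end, called the 3′ probe below, was A_52_P213909 at chr7:103686419-103686478. The other Hbb-b1 probes lay 888 bases (A_51_P374476), 919 bases (A_52_P260346) and 1205 bases (A_51_P374468) upstream of it on the genome. The first of these upstream probes overlapped the next by 29 bases. The 3′ probe and the probe farthest upstream also list the second adult beta-globin gene, Hbb-b2, and the current RefSeq table names the Hbb-b1 record Hbb-bt. Both Hbb-bh1 probes (A_51_P179672 and A_52_P305876, near chr7:103715614-103715693) shared 40 bases. The Hbb-y probe (A_51_P350058) lay at chr7:103726719-103726778, and the Alas2 probe (A_51_P327451) at chrX:145911166-145911225 on the plus strand. Where a gene had several probes, the one with the highest mean signal over the 8 arrays, IPs included, represents it: A_52_P208681 for Hba-a1, A_51_P374476 for Hbb-b1 and A_51_P179672 for Hbb-bh1. No spot of these probes was saturated or marked as an outlier.

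The 6 genes are linked by their use in red cells, and the promoters at hand for 5 of them show a shared sequence feature. RefSeq promoter sequences (GRCm38.p6, from 250 bases before to 50 bases after the gene start) were at hand for Hba-a1, Hba-x, Hbb-bt, Hbb-y and Alas2. The motif GATAA, the core of the sites read by the erythroid factor GATA1, was searched on both strands. It was found in 5 of these 5 promoters and in 25.4% of all 32851 promoters. The motif CACCC, the core of the sites read by KLF1, was found in 5 of 5 and in 57.5% of all promoters. The GATAA matches are shown in 30-base windows, 5′ to 3′ on the strand of the gene, with the match in capitals. TTATC is GATAA on the other strand.
Hba-a1, chr11:32283478-32283507: gtccgggcaactGATAAggattccctgcac
Hba-x, chr11:32276481-32276510: gttgctggctctGATAAcaggctccaccct
Hbb-bt, chr7:103814110-103814139: attagctgcaagGATAAgaacagacactac
Hbb-y, chr7:103853352-103853381: atctaatgtgcaTTATCataaacacagtgt
Alas2, chrX:150547319-150547348: ctactttgctttTTATCtttagcagaggcc
The matches began between 86 bases (Alas2) and 204 bases (Hbb-bt) before the gene start. A match of 5 letters describes the sequence and is not a mapped binding site.

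The arrays of the IPs were dimmer than those of the inputs. Between 16713 and 20391 probes were well above background on the inputs, and between 6068 and 9468 on the IPs. The level of a probe is its log2 signal minus the log2 of the 75th percentile of its array, and is called the log2 level. The dimmest probe well above background had a log2 level between -3.59 and -2.34 on input arrays, but between 0.03 and 1.03 on IP arrays, so low transcripts had only a bound in the IPs. A probe was tested where both arrays of at least 1 group were well above background, which 18265 probes were. All 11 globin and Alas2 probes entered the test, and each of them did so through the inputs, where all were well above background on all 4 arrays. Of 12 germ cell markers, the inputs held 9 (XX) and 12 (XY) above background on each array, and of 11 markers of the supporting cells of the gonad, 4 and 6 were. The supporting cell markers Gata4 and Foxl2 were not above background on any array. The labels do not tie the 2 arrays of a group to separate lots, so p-values measure the spread between arrays, which may be technical. XX and XY arrays lay on different slides, and the slide cannot be told apart from the sex.

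Globin RNA was readily measured in both inputs. The scanner signal of the Hba-a1 probe A_52_P208681 was 35706 and 23814 on the XX input arrays and 34489 and 29777 on the XY input arrays. As log2 levels these were 7.69 and 8.27 in XX and 8.18 and 8.52 in XY. The adult beta-globin probe A_51_P374476 had log2 levels of 8.68 and 9.28 in XX input and 9.29 and 9.47 in XY input. The embryonic chains were present as well. The log2 levels of Hbb-y were 4.83 and 5.05 in XX and 4.97 and 5.28 in XY. Those of Hbb-bh1 were 1.95 and 2.22 in XX and 2.03 and 2.25 in XY, and those of Hba-x were 0.68 and 0.64 in XX and 0.98 and 1.04 in XY. Alas2, which needs a maturing red cell to be expressed, had log2 levels of 2.21 and 2.42 in XX and 2.68 and 3.01 in XY. For Hbb-b1, Hba-x and Alas2 both XY input arrays lay above both XX input arrays, and for Hba-a1, Hbb-y and Hbb-bh1 the ranges overlapped. Over all tested probes 38% lay this way and 38% the other way, so this separation is common.

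**Figure D1:**
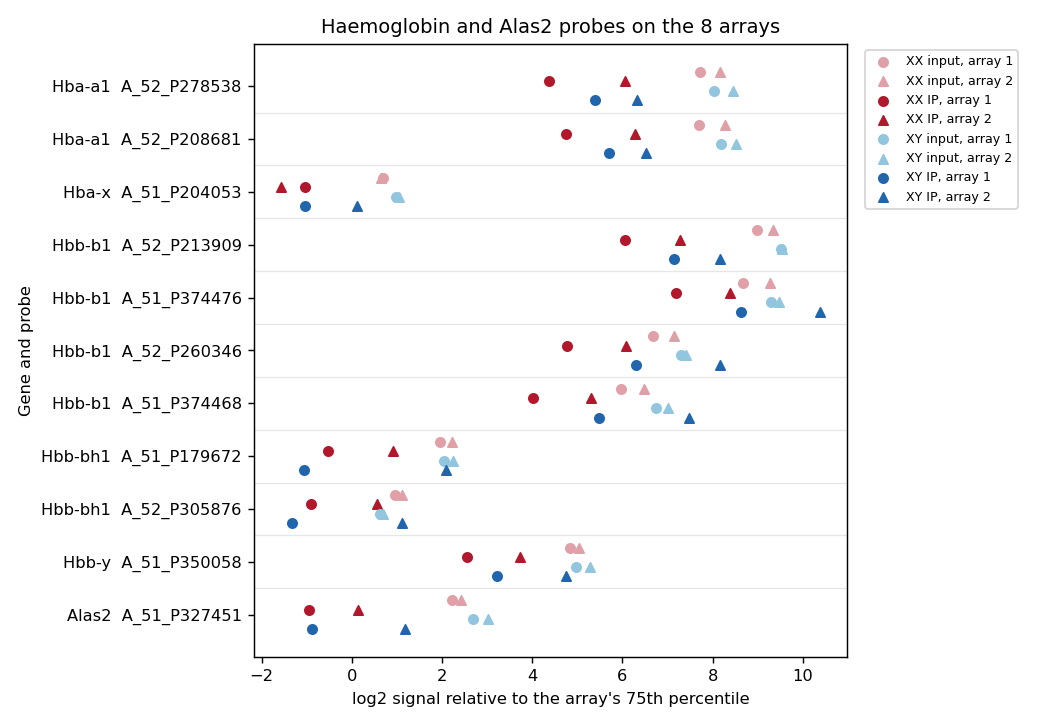
Log2 level of each of the 11 globin and Alas2 probes (rows) on each of the 8 arrays, with the array's own 75th percentile at 0. Circles are array 1 and triangles array 2 of each group. Input points lie close together, and IP points are mostly lower and farther apart, with the second IP array above the first for every probe except Hba-x in XX.

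The input levels of the globin and Alas2 probes did not differ detectably between the sexes. This does not hold for every red cell gene: of 9 tested membrane and skeleton genes, 1 was called higher (Icam4) and 1 lower (Rhd) in XX input. XX input minus XY input was below 0 for 10 of 11 probes, with a median of -0.36 and a range of -0.64 to 0.37. With normexp background correction, which collapsed the spread of 1 XY input array, all 11 lay above 0 with a median of 0.56, and with outlying local backgrounds replaced the median was -0.27. None passed the test in either direction (limma, adjusted p under 0.05), against 5.87% of all tested probes higher and 6.1% lower in XX, and 0 of 11 reached an unadjusted p under 0.05. The difference was -0.37 for Hba-a1 (95% interval -1.54 to 0.79, adjusted p = 0.77), -0.19 for Hbb-y (-1.38 to 1.00, adjusted p = 0.90) and -0.53 for Alas2 (-1.86 to 0.81, adjusted p = 0.70). The median over all tested probes was -0.0022. Each of these intervals reached past a 2-fold lower level in XX.

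In the XX IP, globin and Alas2 transcripts lay below input, and none was called higher. At an adjusted p under 0.05 and at least 4-fold, 9.89% of all tested probes were called lower and 14.1% higher. Of the 6 genes, 2 were called lower by their representative probe, Hba-a1 and Alas2, the latter from IP signals not above background, and 4 of the 11 probes were. Hbb-b1 was called lower by its 3′ probe but not by its representative, so the gene count depends on that choice. Without the 4-fold limit 4 of 6 genes passed, Hbb-y also and Hba-x, the latter again from IP signals not above background. Passing without a fold limit was common: at an unadjusted p under 0.05 (limma), 10197 of all 18265 tested probes passed in XX, beside 9 of the 11. The 11 differences ran from -2.73 to -1.20 with a median of -1.90, where the median of all tested probes was 0.09. For all 11 probes, both IP arrays lay below both input arrays, as they did for 37.4% of all tested probes, while 40.2% lay above input without overlap. This order is not known for Hba-x and the Hbb-bh1 probe A_52_P305876, which were not above background on XX IP array 1. The dimmest probe above background there had a log2 level of 1.03. Their XX input levels were 0.68 and 0.64 (Hba-x) and 0.95 and 1.10 (A_52_P305876). The counts depend on how the arrays are scaled to each other: with the 50th percentile of each array 6 of 6 genes were called lower, together with 8646 of all probes against 189 higher, and with quantile normalization 4 of 6, with 3283 lower and 1480 higher, where the 75th percentile gave 1807 and 2573. These scalings moved the median of all probes to -1.92 and -0.74. Without array 1 of the XX IP the median of the 11 probes was -1.21, and without array 2 it was -2.38. Over the 7 probes that were above background on all 8 arrays the median was -1.79, where that of all 4206 such probes was 0.56.

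The same held in part in the XY IP. There 7.66% of all tested probes were called lower and 10.2% higher. Again Hba-a1 and, with 1 of 2 IP arrays above background, Alas2 were called lower, 3 of 11 probes in all, and none higher. Without the fold limit Hba-x also passed, with no IP array above background. At an unadjusted p under 0.05 (limma), 5 of the 11 probes passed in XY, beside 9091 of all 18265 tested probes. The differences ran from -2.70 to 0.13 with a median of -1.48, against -0.03 for all tested probes. In 6 of the 11 probes both IP arrays lay below both input arrays, against 37.1% of all tested probes, and in none above, against 35.5%. With the 50th percentile 5 of 6 genes were called lower, beside 8380 of all probes against 219 higher, and with quantile normalization 1 of 6, beside 2481 and 1241, where the 75th percentile gave 1400 and 1863. Over the same 7 probes the median was -1.14, where that of all 4206 was 0.41. The XY values rested on single arrays: without array 1 of the XY IP the probe median was -0.39, and without array 2 it was -2.06.

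**Figure D2:**
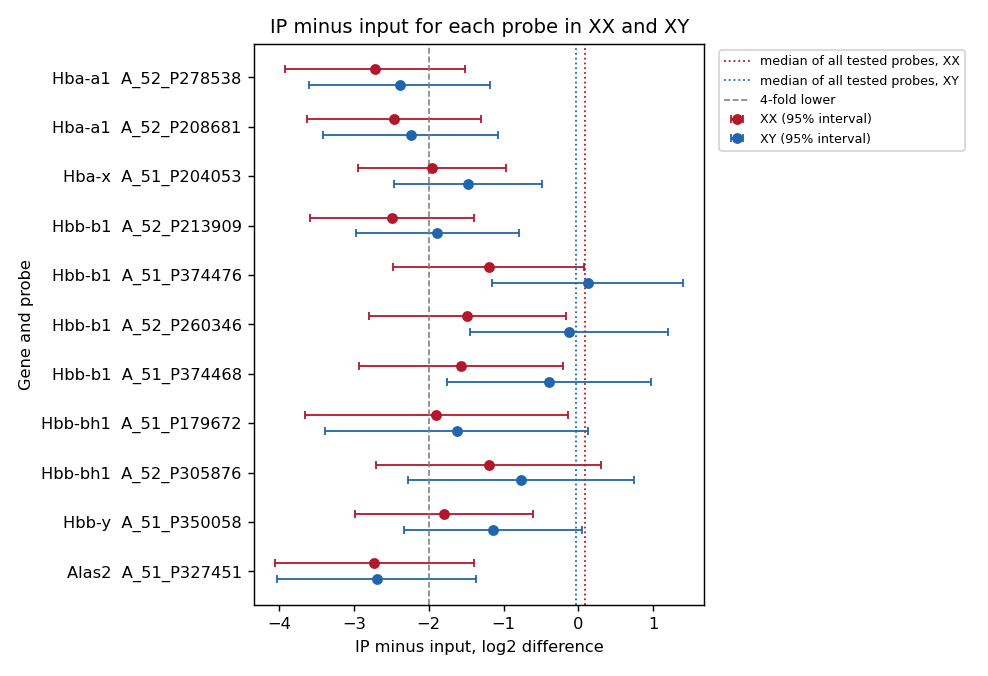
IP minus input of each probe in XX (red) and XY (blue), as a log2 difference with its 95% interval from the limma fit to all 8 arrays. Dotted lines mark the median of all 18265 tested probes in each sex and the dashed line a 4-fold lower level. In XY the 3 upstream Hbb-b1 probes lie nearest to 0.

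Among the alpha-type chains, adult Hba-a1 was depleted in both sexes. Its scanner signals of 35706 and 23814 in XX input stood beside 240 and 982 in the XX IP, and 34489 and 29777 in XY input beside 354 and 1206 in the XY IP. These raw signals come from unequal amounts of labelled RNA and are not shares recovered. The log2 levels in the IPs were 4.74 and 6.29 in XX and 5.70 and 6.52 in XY, each below every input array. IP minus input was -2.46 (SE 0.53, adjusted p = 0.0030, limma) in XX and -2.24 (SE 0.53, adjusted p = 0.0066) in XY. The other Hba-a1 probe fell by 2.72 on the log2 scale in XX (adjusted p = 0.0021), and in XY by 2.39 (adjusted p = 0.0057). Hba-a1 thus remained among the well-measured transcripts of the IPs, above background on all 4 IP arrays.

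Embryonic zeta-globin, Hba-x, left no signal above background in either IP. Its log2 levels there were -1.03 and -1.57 in XX and -1.05 and 0.10 in XY and no array was marked as well above background. The fitted differences were -1.96 (SE 0.45, adjusted p = 0.0042) in XX and -1.48 (SE 0.45, adjusted p = 0.022) in XY, short of 4-fold. Since only a bound is known, Hba-x was at least 1.01-fold lower in the XX IP and at least 1.42-fold lower in the XY IP. The bound takes for each array the higher of the probe's own level and the lowest level among probes well above background.

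Of the embryonic beta-type chains, Hbb-y had log2 IP levels of 2.56 and 3.73 in XX and 3.23 and 4.74 in XY, below all input arrays of its sex and above background on all 4. It fell by 1.79 on the log2 scale in XX (SE 0.55, adjusted p = 0.018), less than 4-fold. In XY the difference was -1.14 (SE 0.55, adjusted p = 0.11). Hbb-bh1 was above background on 1 of 2 IP arrays in each sex. Its IP log2 levels were -0.54 and 0.91 in XX and -1.06 and 2.09 in XY, where the higher array reached the inputs. The differences of -1.90 (SE 0.81, adjusted p = 0.069) in XX and -1.62 (SE 0.81, adjusted p = 0.13) in XY did not pass. Its second probe gave -1.20 and -0.77, with adjusted p-values of 0.17 and 0.39.

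Adult beta-globin gave different answers with different probes. At the 3′ probe the IP log2 levels were 6.07 and 7.29 in XX and 7.13 and 8.16 in XY, against 8.99 and 9.35 in XX input and 9.51 and 9.55 in XY input. IP minus input was -2.49 (SE 0.50, adjusted p = 0.0019) in XX and -1.88 (SE 0.50, adjusted p = 0.011) in XY, the latter short of 4-fold. The upstream probe A_51_P374476 had the highest mean signal over the 8 arrays. On the inputs the 3′ probe was higher, with mean log2 levels of 9.17 against 8.98 in XX and 9.53 against 9.38 in XY. At A_51_P374476 the IP log2 levels were 7.19 and 8.38 in XX and 8.63 and 10.38 in XY. The second XY IP array thus lay above both XY input arrays. The difference was -1.20 (SE 0.59, adjusted p = 0.11) in XX and 0.13 (SE 0.59, adjusted p = 0.88) in XY, where the sign turned under 4 other scalings and both normexp background corrections, from -3.25 to -0.20. The remaining upstream probes gave -1.48 and -1.57 in XX, with adjusted p-values of 0.060 and 0.055, and -0.12 and -0.39 in XY, with adjusted p-values of 0.89 and 0.64.

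Alas2, the erythroid 5-aminolevulinate synthase, was near background in the IPs. Its IP log2 levels were -0.95 and 0.13 in XX and -0.89 and 1.18 in XY, and it was above background on 0 of 2 XX IP arrays and 1 of 2 XY IP arrays. IP minus input was -2.73 (SE 0.61, adjusted p = 0.0036) in XX and -2.70 (SE 0.61, adjusted p = 0.0050) in XY. In XX the dim IP allowed a bound only, at least 3.17-fold lower, which is under the 4-fold limit that the fitted value passed. In XY the fitted value rests on 1 IP array above background and 1 that was not.

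The ratio of 2 probes on the same array does not depend on the percentile used to scale the arrays, but can change with quantile normalization or the background correction. Such ratios were taken for the 7 globin probes that were above background throughout, the 2 of Hba-a1, the 4 of Hbb-b1 and that of Hbb-y, and the 4 IP arrays were set against the 4 input arrays for all 21 pairs with an exact two-sided permutation test. The smallest p this design allows, 0.0286, was reached by 16 of the 21 pairs (adjusted p = 0.0375 over the 21), and in the same 16 the IP and input ranges did not overlap. Of all 8843115 pairs of the 4206 probes above background throughout, 60.2% did not overlap either, and the 21 pairs share 7 probes. With arrays exchanged only within a sex, which keeps the slide, there are 36 arrangements and the smallest p is 0.0556, which 19 of the 21 pairs reached, so no pair can pass in that form. Relative to the 3′ probe of Hbb-b1, the log2 ratio of the upstream probe A_51_P374476 was -0.17 ± 0.11 (SD, n = 4) on the inputs and 1.48 ± 0.53 (SD, n = 4) on the IPs. Its values on the single arrays were -0.31 and -0.07 in XX input, 1.12 and 1.09 in the XX IP, -0.22 and -0.08 in XY input and 1.50 and 2.22 in the XY IP. All 4 IP arrays thus exceeded all 4 inputs, by 1.65 on average (exact permutation p = 0.0286), 1.29 in XX and 2.01 in XY. The ratios of A_52_P260346 and A_51_P374468 to the 3′ probe were higher on the IPs by 1.38 and 1.21, again with no overlap. Within each sex 2 arrays stood against 2, too few for the exact permutation test to pass, and the direction was the same in both.

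**Figure D3:**
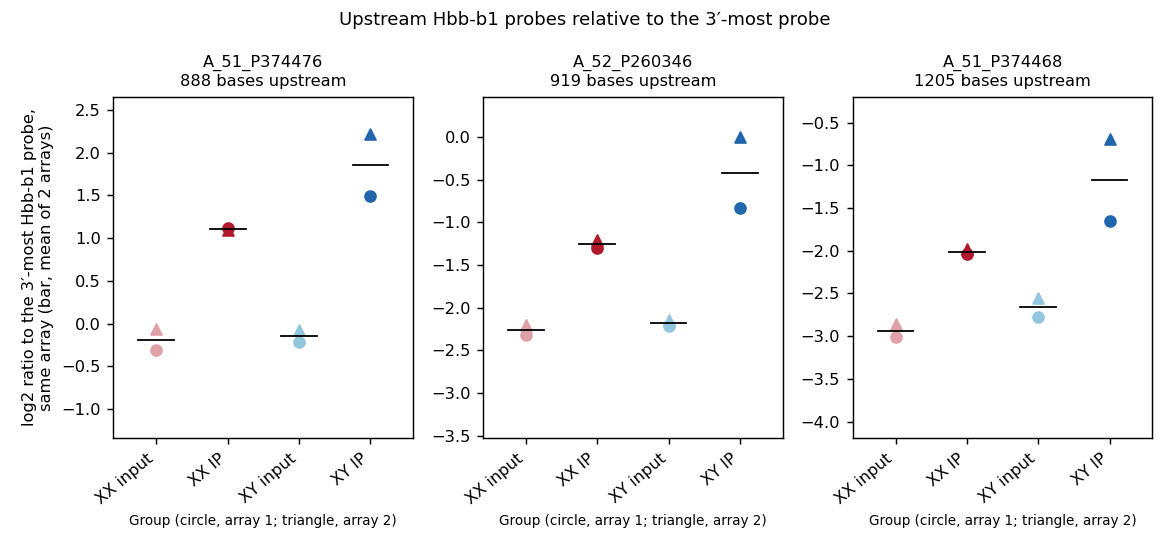
Log2 ratio of each of the 3 upstream Hbb-b1 probes to the 3′-most Hbb-b1 probe on the same array, for the 4 groups. Circles are array 1, triangles array 2 and bars the mean of both. In every panel the 4 IP arrays lie above the 4 input arrays, and the XY IP arrays lie highest.

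Ratios between chains depended on the probe. Hbb-y was higher on the IPs by 0.72 relative to the 3′ probe of Hbb-b1 (exact permutation p = 0.0286, 0.70 in XX and 0.74 in XY). The ratio of the upstream Hbb-b1 probe A_51_P374476 to Hbb-y was also higher on the IPs, by 0.93 (exact permutation p = 0.0286), so the direction of Hbb-y against adult beta turned with the Hbb-b1 probe. With normexp background correction the latter ratio changed by 0.29, -0.09 in XX and 0.67 in XY, so that its direction in XX turned. The ratio of the 3′ to the upstream Hbb-b1 probe changed by -1.67 to -1.65 under quantile normalization, both normexp corrections and the deposited values, and that of the 3′ probe to Hbb-y by -1.36 to -0.72. Relative to Hba-a1 (A_52_P208681), Hbb-y was higher on the IPs, the Hba-a1 to Hbb-y ratio being lower there by 0.88 (exact permutation p = 0.0286). The ratio of Hba-a1 to the 3′ probe of Hbb-b1 differed by -0.16 (exact permutation p = 0.31), and with the other Hba-a1 probe by -0.37 (exact permutation p = 0.086), so no difference was detectable between adult alpha and the 3′ end of adult beta. Against the upstream probes A_51_P374476, A_52_P260346 and A_51_P374468 the ratio of Hba-a1 changed by -1.82, -1.55 and -1.37. With the other Hba-a1 probe it changed by -2.02, -1.75 and -1.58 (exact permutation p = 0.0286 for each of these ratios). The Hba-a1 probes themselves differed from each other by -0.20 (exact permutation p = 0.0286), and the overlapping upstream Hbb-b1 probes by 0.27 (exact permutation p = 0.0286). The overlapping Hbb-bh1 probes, dim in the IPs, gave -1.90 and -1.20 for IP minus input in XX and -1.62 and -0.77 in XY. Dim probes with much the same target thus differed by as much as some of the ratios between chains. They differed by less than the ratios of Hba-a1 to the upstream Hbb-b1 probes changed. Labelling started from 1 ng of RNA in the IPs and from 50 ng in the inputs, and the part of this in the probe ratios was not tested.

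No gene's depletion differed between XX and XY by the test of the difference itself, although all 11 differences lay below 0. XX minus XY of IP minus input had a median of -0.48 over the 11 probes, a range of -1.36 to -0.03, and 0 of 11 probes called or at an unadjusted p under 0.05, against 2.18% of all tested probes higher and 1.12% lower. The difference was -0.22 for Hba-a1 (95% interval -1.87 to 1.43), -0.65 for Hbb-y (-2.34 to 1.04), -1.32 for the upstream Hbb-b1 probe (-3.13 to 0.48) and -0.03 for Alas2 (-1.92 to 1.85). Intervals this wide do not show that the sexes were alike. The direction rested on single arrays: the probe median was 0.0018 without array 1 of the XX IP and 0.11 without array 2 of the XY IP, but -1.41 without array 1 of the XY IP. Between the IPs themselves, XX minus XY was below 0 for all 11 probes with a median of -0.83, and none was called, against 11.7% of tested probes higher and 8.75% lower. With normexp background correction the median was 0.016 (range -0.84 to 0.31), and with outlying local backgrounds replaced it was -0.48. The call depended on the setting. With the replicate block 3 of 11 probes were called lower, beside 2063 of all 18265 probes. Quantile normalization gave 3, beside 2663, and the 75th percentile of the 4206 probes 4, beside 2600. With those probes alone 3 of 7 were called lower, beside 629 of 4206. The 3 upstream Hbb-b1 probes came nearest, with -1.72, -1.80 and -1.81 and adjusted p-values of 0.059, 0.055 and 0.061. Their levels rested on which IP array was read. Over all 11 probes the median of XX IP minus XY IP was -1.59 without array 1 of the XY IP. It was -0.18 without array 2 of the XY IP and -0.25 without array 1 of the XX IP.

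The 2 IP arrays of each sex differed more for most globin probes than for most other probes. In XY, array 2 exceeded array 1 for all 11 probes, by a median of 1.75 and a range of 0.82 to 3.16. The median of the 4206 probes above background on all 8 arrays was 0.75, with 10% of them over 1.23. On XY IP array 1, Hbb-bh1, Hba-x and Alas2 were not above background, so their differences, 3.16 and 2.44 for Hbb-bh1 and 2.07 for Alas2 among them, have no exact size. Over the 7 probes above background throughout, the XY differences ran from 0.82 to 1.99, with 1.99, 1.86 and 1.75 for the upstream Hbb-b1 probes. It was 1.03 at the 3′ probe of Hbb-b1 and 0.92 and 0.82 for Hba-a1, inside the common range. In XX, array 2 exceeded array 1 for 10 of 11 probes, with a median of 1.28 against 0.72 for the 4206 probes. There Hba-a1 gave 1.67 and 1.55. The input arrays differed less, with member medians of 0.36 in XX and 0.21 in XY against 0.14 and 0.10. By comparison, 8 germ cell markers above background on all arrays had IP medians of 0.79 (XX) and 0.32 (XY), with ranges of -0.40 to 1.04 and -0.40 to 1.23.

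**Figure D4:**
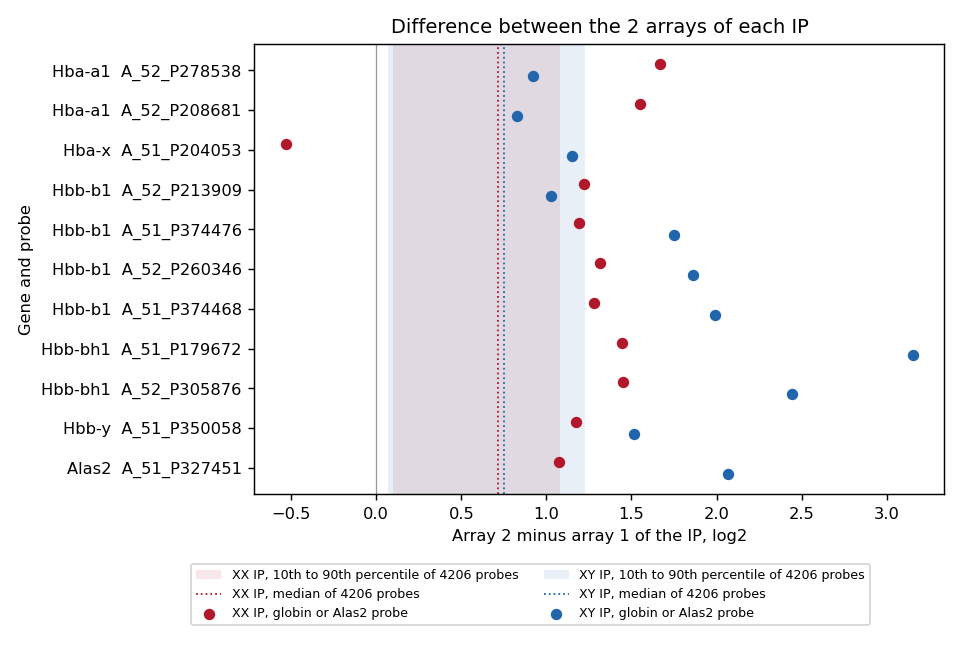
Array 2 minus array 1 of the XX IP (red) and the XY IP (blue) for each globin and Alas2 probe, as a log2 difference. Shading spans the 10th to the 90th percentile and dotted lines the median of the 4206 probes above background on all 8 arrays. In XY, 7 of the 11 probes lie to the right of the shading, and in XX all but Hba-x and Alas2 do.

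Genes of the wider red cell programme were counted from lists that also hold genes used in many cells. Beside these counts, 9.89% of all tested probes were called lower and 14.1% higher in XX, and 7.66% and 10.2% in XY. Of the other globins, cytoglobin (Cygb), made by fibroblast-like cells, was called lower in both sexes (adjusted p = 0.00021 and 0.0016) with no IP array above background, at least 2.53-fold lower in XX and at least 2.77-fold in XY, and neuroglobin (Ngb) gave 0.48 and 1.35 (adjusted p = 0.54 and 0.096). Among 19 haem synthesis and iron genes, all tested, 6 were lower and 1 higher in XX, and 4 lower and 1 higher in XY, with medians of -0.58 and -0.04. Blvrb, counted as lower in both sexes, had no IP array above background. It was at least 1.80-fold lower in XX and at least 1.89-fold in XY. The haem enzyme Alad fell by 3.16 in XX (adjusted p = 0.00046), and Ftl1, the ferritin light chain, by 2.92 in XY (adjusted p = 0.00070). Each was above background on only 1 IP array of that sex, so these falls have no exact size. In the opposite direction, Tfrc, the transferrin receptor, rose by 2.38 in XX (adjusted p = 0.00069), and Hmox1, which breaks haem down, rose by 2.38 in XY (adjusted p = 0.0016). In XX Hmox1 gave -0.58 (adjusted p = 0.29), and the XX minus XY difference, -2.96, itself passed (adjusted p = 0.025). Most of these genes are used in all cells, so their values do not belong to blood alone.

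For genes closer to red cells detection in the IPs is given first, where 6068 to 9468 of the 41174 probes were above background on each array. On both XX IP arrays, 1 of 19 red cell membrane and skeleton genes, 2 of 11 erythroid transcription factors and 6 of 19 other erythroid genes were, and on both XY IP arrays 3, 2 and 6 were. In XX input 9, 8 and 13 were. The shares of all tested probes called, 9.89% lower and 14.1% higher in XX and 7.66% and 10.2% in XY, stand beside the counts here too. Of the membrane and skeleton genes 9 were tested. In XX 1 gene was called lower, Gypc, with a fitted value of -2.17 (adjusted p = 0.00088) but no IP array above background, so that it was at least 1.56-fold lower. Its XY value was -1.53 (adjusted p = 0.0082), again with no IP array above background. In XY the 1 gene called higher, Icam4, was below background on all 4 XY arrays. The highest values among genes above background in input were those of the skeleton proteins Ank1 in XX, 1.21 (adjusted p = 0.12) with no XX IP array above background, and Epb41 in XY, 0.39 (adjusted p = 0.48). Of 11 erythroid transcription factors 9 were tested and none was called. Gata1 was above background on 1 of 8 arrays, and Klf1, the globin activator, gave 0.41 in XX (adjusted p = 0.76). Its XY value was 2.54 (adjusted p = 0.071), from a probe above background on 1 of 2 input and 0 of 2 IP arrays. Nfia in XX (-1.13, adjusted p = 0.026) and Zfpm1 in XY (-1.14, adjusted p = 0.068) were the lowest, and Bcl11a, a repressor of embryonic globins, gave 1.48 in XY (adjusted p = 0.024) with no XY IP array above background. Of 14 other erythroid genes tested, 5 were lower and 1 higher in XX, and 2 lower in XY, and the higher one, Rhoh, was below background on all 4 XX arrays. The peroxiredoxin Prdx2, abundant in red cells and made in most cells, fell by 2.93 in XX (adjusted p = 0.00032), and in XY by 2.38 (adjusted p = 0.0016). Bnip3l, which clears mitochondria from maturing red cells, gave 1.20 in XX and 1.84 in XY (adjusted p = 0.027 and 0.0041), under 4-fold. Of the 5 other erythroid genes called lower in XX, Cat, Stfa1 and Hebp1 had no XX IP array above background and were at least 1.50-fold, 1.43-fold and 2.27-fold lower. Stfa1, 1 of the 2 called lower in XY, had no XY IP array above background either, and its bound there showed no decrease.

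**Figure D5:**
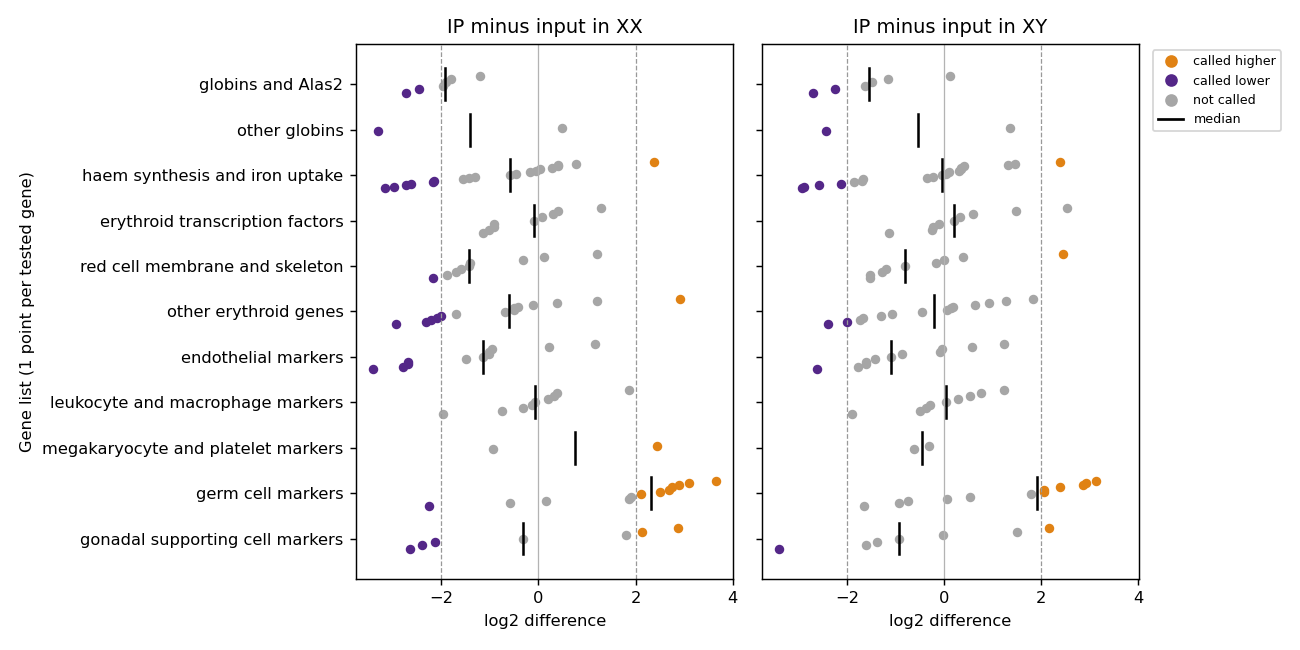
IP minus input (log2 difference) of each tested gene of each list in XX (left) and XY (right), 1 point per gene, with the list's median as a bar and dashed lines at 4-fold. Globins and Alas2 lie on the lower side in both panels except Hbb-b1 in XY, at 0.13, germ cell markers mostly on the higher side, and points of the other red cell lists lie on both sides.

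Other cells of blood and its vessels were examined for the same pattern, again beside 9.89% of all tested probes called lower and 14.1% higher in XX, and 7.66% and 10.2% in XY. Of 14 endothelial markers 11 were tested, and 4 were lower in XX (Cdh5, Kdr, Emcn and Robo4) and 1 in XY (Robo4), with medians of -1.14 and -1.08 and none higher. The 4 called in XX had no XX IP array above background, and as bounds Cdh5 was at least 1.51-fold, Kdr at least 3.08-fold, Emcn at least 2.71-fold and Robo4 at least 4.16-fold lower there. The summed level of the 14 on each array, in log2, was 4.41 to 4.80 in XX input, 2.74 to 4.46 in the XX IP, 4.43 to 4.73 in XY input and 3.61 to 4.08 in the XY IP. No endothelial marker was above background on both XX IP arrays, so these IP sums are largely of dim probes, and the higher XX IP sum holds Tek at a log2 level of 3.56 on 1 array and -1.80 on the other. Pecam1 and Tie1 were not above background on any array. Of 14 leukocyte markers 9 were tested and none was called, and 0 of 14 were above background on any IP array. Their summed log2 level was 2.65 to 3.06 in XX input and 2.45 to 3.09 in the XX IP, 2.61 to 2.79 in XY input and 2.64 to 3.17 in the XY IP, with Ptprc, Cx3cr1 and Spi1 above background on no array. Of 10 platelet markers 2 were tested, and the 1 called higher in XX, Treml1, was below background on all 4 XX arrays. Of 12 germ cell markers, where DAZL is made, 7 were higher and 1 lower in XX and 6 higher in XY, with medians of 2.31 and 1.92. In XX 2 of the 7, Nanos2 and Nanos3, were below background on all 4 arrays. The part of these cell types in the globin values was not tested.

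The genes nearest to each globin and Alas2 in profile were sought over the 8 arrays. Likeness was the root mean square difference between log2 levels over the 8 arrays, each profile centred on its own mean, among 12223 named genes with a tested probe. For Hba-a1 the nearest genes were Calr (0.105), Col5a1 (0.164) and Tmem242 (0.177), where the median over all genes was 1.38. For Hbb-y they were Prdx4 (0.111), Itpr3 (0.113) and Preb (0.121), for Hba-x Ero1a (0.0946), Dcaf4 (0.0977) and P2ry6 (0.115), and for Alas2 Mfsd10 (0.154), Chmp2a (0.190) and Gtf3a (0.197). For Hbb-bh1 they were Hps6 (0.191), Flnc (0.231) and Slc46a1 (0.269), and for the upstream Hbb-b1 probe Ndst1 (0.170), Jun (0.182) and Srd5a1 (0.194). Calr, a chaperone of the endoplasmic reticulum, fell by 2.45 in XX and by 2.24 in XY on the log2 scale, as Hba-a1 did. The profiles of Hba-x, Hbb-bh1 and Alas2 include IP values not above background, and their nearest genes rest partly on these.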

How the data were processed

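RNA of lots of 50 gonads was amplified and labelled with Cy3 by the Low RNA Input Linear Amplification kit of Agilent, starting with 50 ng of RNA for inputs and 1 ng for IPs, and hybridised to 8 one-colour arrays. The deposited scanner files give, per the file headers, a processed signal intensity per spot made by Feature Extraction 9.5.3.1, with a background subtracted and no normalization between arrays, as well as the mean intensity and local background. The deposited value table holds log2 values that the authors set to at least 1 before the log and scaled to the 75th percentile of each array; it served as an alternative.

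Here, spots marked as outliers were dropped, signals lower than 1 were raised to 1, spots of a probe were averaged as log2 values, and the 75th percentile of the array was subtracted. Of 41174 probes 73 were outliers on at least 1 array and were left out, and 18265 of the remaining 41101 passed as well above background in 1 group or more, on each array of that group. Linear models with 1 mean per group were fitted to all 8 arrays with limma 3.58.1 in R 4.3.3 (empirical Bayes, 4 residual and 7.84 prior degrees of freedom). The tests were two-sided, with Benjamini-Hochberg adjustment over the 18265 probes of each contrast. IP minus input was called at an adjusted p under 0.05 and at least 4-fold, and other contrasts at an adjusted p under 0.05. Each array is 1 sample, and the number of arrays limits the precision. On simulated data with 200 probes changed 8-fold, 199 were found for IP minus input in XX and 198 in XY, 141 for the XX minus XY difference, 193 between the inputs and 196 between the IPs. False calls were 5, 20, 19, 18 and 22 in the same order. The fitted differences of the globins and Alas2 were smaller than 8-fold, and recovery at their size was not simulated.

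The genes and lists were chosen with earlier results of these data known. The ratios between probes of 1 array, both ways of exchanging arrays in their test (scipy 1.17.1) and their alternatives were added after the values were seen. Named genes were all probes of the 6 genes, the highest and the lowest gene in each red cell list among those above background in both inputs of the sex, and the 3 genes nearest in profile. A few genes, such as Gata1, were named after their values were seen. Probes were named through RefSeq accessions (23374), symbols (6733) or older symbols (2919). Replicate numbers did not pair the arrays: deviations of same-numbered input and IP arrays correlated at 0.07 in XX and 0.09 in XY, and at 0.03 and 0.14 with only the 4206 probes detected on every array. Probe, transcript and protein sequences were not used here.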

Additional observations from a re-analysis of the deposited data

How the results depend on the processing

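The 10 counts of genes called and the 30 values of single genes were recomputed under 19 alternatives (18 for the XX minus XY difference, which uses all 8 arrays), 8 of them leaving out 1 array each, and 1, normexp with outlying local backgrounds replaced, chosen after seeing the data because plain normexp collapsed the spread of 2 XY arrays. In each of the 19 alternatives the median of the globin and Alas2 probes lay below the median of all probes for IP minus input in XX, with differences of -4.45 to -1.29, and in XY, with differences of -3.86 to -0.43. The 2 genes called lower in XX became 6 with the 50th percentile, 5 with the 75th percentile of probes above background on all arrays, 4 with quantile normalization, 6 with no scaling, and 1 of 3 tested with only probes above background on all arrays. Beside them, 8646, 2859, 3283 and 14218 of all 18265 probes and 373 of 4206 were called lower, in that order. The 2 called lower in XY became 5, 2, 1, 6 and 1 in the same order, and 1 with normexp. Beside them, 8380, 2184, 2481 and 14956 of all 18265 probes, 231 of 4206 and, with normexp, 804 of 18265 were called lower. Leaving out 1 array moved the probe median in XY between -2.06 and -0.39. The 50th percentile, the 75th percentile of probes above background on all arrays, quantile normalization and no scaling moved the median of all probes in XX from 0.09 to -1.92, -0.34, -0.74 and -3.36. For XX IP minus XY IP, 0 genes were called. Under 75th percentile scaling to probes above background on all arrays, and under quantile normalization, 1 (Hbb-b1) was called lower. It was also called with only those probes and with the replicate block. Beside it, 2600 and 2663 of 18265, 629 of 4206 and 2063 of 18265 probes were called lower, in that order. Leaving out 1 array moved the probe median between -1.59 and -0.18. The replicate block changed no other call of these genes, although replicate numbers did not pair the arrays, and moved the calls of the XX minus XY difference over all probes from 398 higher and 204 lower to 964 and 511. No value of IP minus input in XX changed sign. Calls over all probes ran from 7 to 23339 higher and from 373 to 14218 lower in XX (2573 and 1807 as reported), from 21 to 22378 and from 231 to 14956 in XY (1863 and 1400), from 0 to 989 and from 0 to 571 for the XX minus XY difference, from 129 to 4134 and from 72 to 3919 for the inputs (1073 and 1114), and from 281 to 2685 and from 9 to 2663 for the IPs (2144 and 1598).

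The upstream Hbb-b1 probe in XY, 0.13, changed sign to -1.74 with the 50th percentile, -0.20 with the 75th percentile of probes above background on all arrays, -0.62 with quantile normalization, -3.25 with no scaling, -1.97 with normexp and -2.10 with backgrounds replaced, and ran from -0.75 to 1.00 when 1 array was left out. Other changes of sign were in comparisons where no gene was called. For the XX minus XY difference they were 0.10 (Hba-x) and 0.24 (Alas2) with backgrounds replaced and 0.44 (Hbb-bh1) with quantile normalization. Leaving out 1 array gave -1.0 to 0.55 for Hba-a1, -1.06 to 0.094 for Hba-x, -1.85 to 1.30 for Hbb-bh1, -1.41 to 0.11 for Hbb-y and -1.06 to 1.00 for Alas2. For the inputs, normexp gave 0.46 (Hba-a1), 0.10 (Hba-x), 0.68 (Hbb-b1), 0.70 (Hbb-bh1), 0.80 (Hbb-y) and 0.28 (Alas2), no scaling 0.18 (Hbb-bh1) and 0.049 (Hbb-y), backgrounds replaced 0.13 (Hbb-bh1), and leaving out 1 array -0.19 to 0.080 (Hbb-bh1). For the IPs, normexp gave 0.20 (Hba-a1), 0.060 (Hbb-bh1) and 0.11 (Hbb-y), quantile normalization 0.33 (Hbb-bh1), and leaving out 1 array -1.37 to 0.18 (Hba-a1), -1.91 to 1.25 (Hbb-bh1) and -1.59 to 0.48 (Alas2). The cause of these changes was not tested. A lone array left in a group was taken to vary like the others. Signal over background limits Hba-x, Hbb-bh1 and Alas2, which were above background on 0 or 1 of the 2 IP arrays of each sex.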
